A study of Homo sapiens with 27 samples.

Results

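SIRT5 was knocked down in the human melanoma cell line A2058 with 2 different short hairpin RNAs, and the RNA of the 2 knockdown arms was set against each other. A2058 is an established line, and the arms are named KD1 and KD2 as in the deposited expression table. The compared members are 6 libraries, 3 of KD1 and 3 of KD2, of 27 libraries in the series, and 12252 of 26004 genes, those with at least 1 FPKM in 3 or more of the 6 libraries. FPKM is the number of fragments of a gene per kilobase of its length, scaled here by a size factor for each library's depth and not by its read total. Levels can thus be compared between genes. The 3 control libraries of A2058, called NT, carry a non-silencing hairpin against Gaussia luciferase and serve only to place each arm.

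All 3 groups were transduced with lentivirus in the pLKO.1 backbone for 24 h with 8 µg/ml polybrene, put under 1 µg/ml puromycin from 48 h, and lysed in TRIzol at 96 h after transduction. Virus, puromycin and a hairpin are therefore shared by control and knockdown cells. Each group came from 3 wells of a single line, so the p-values reflect only well-to-well variation, which can be technical. The sample labels call the hairpins 546 and 547 and do not pair these numbers with KD1 and KD2, so the hairpin numbers are not used here.

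SIRT5 is a mitochondrial and cytosolic sirtuin, an NAD-dependent enzyme that strips acidic acyl marks such as succinylation from metabolic enzymes. A short hairpin RNA is cut by DICER1 into a guide that is loaded into an Argonaute protein and directs cleavage of the matching transcript. As with a microRNA, the seed near the 5′ end of the guide can also pair with 3′ untranslated regions (3′ UTRs) of other transcripts and lower them. Hairpins that share a target but not a sequence can share what follows from loss of the target. They can differ in what depends on the guide's sequence and in how far the target is lowered.

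Recovered read totals were between 29.3 and 54.5 M reads in the 9 A2058 libraries, with KD1 replicate 2 the deepest. The mitochondrial genome gave 9.87 to 11.1% of the reads in each. All 9 melanocyte lineage markers passed the expression minimum, among them SOX10 at 124 FPKM in KD1 and 96.5 FPKM in KD2, and PMEL at 142 and 184 FPKM. Of the marker lists of other cell types, 1 of 6 keratinocyte, 1 of 6 fibroblast, 1 of 6 leukocyte and 0 of 6 endothelial genes passed. The summed FPKM of the fibroblast list was 16.1 to 18.1 in KD1 and 6.25 to 6.88 in KD2, nearly all from LUM, and CDH5 and DSG3 were listed at 0 in both arms. The part of these markers in the results below was not tested. In bulk RNA, fewer cells of a kind and less RNA per cell cannot be told apart.

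SIRT5 itself was low in both arms and lower in KD1. Its gene (ENSG00000124523) lies at chr6:13574227-13615158 on the plus strand of GRCh38. SIRT5 stood at 2.36, 2.17 and 1.81 FPKM in the control libraries, at 0.226, 0.147 and 0.161 FPKM in KD1 and at 0.413, 0.413 and 0.444 FPKM in KD2. No library of one arm reached into the range of the other. The mean level was 8.44% of control in KD1 and 20.04% in KD2, a ratio of 2.38 between the arms. The arms thus differ in hairpin and in SIRT5 level together, and the part of each in the results below was not tested. These values rest on 38 to 54 reads in each KD1 library and 93 to 106 in each KD2 library. SIRT5 failed the expression minimum, so it had no place in the main fit. An exact permutation test, two-sided, gave p = 0.1, the smallest that 3 against 3 libraries allow, and limma fitted without the minimum gave an adjusted p of 0.0046 for a difference of 0.45 on the log2(FPKM + 0.5) scale. The order was the same in the other lines, where KD1 left 3.89% of control in A375 and 7.01% in SKMEL2 and KD2 left 12.4% and 19.98%.

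The arms differed across most of the transcriptome. By limma with Benjamini-Hochberg adjustment at 0.05, 3885 genes (31.7% of those tested) were higher in KD2 and 5115 (41.7%) were lower, that is, higher in KD1. Most of these differences were small. At least 2-fold on the log2(FPKM + 0.5) scale, 749 genes (6.11%) were higher and 976 (7.97%) lower in KD2. The split between directions depended on scaling: centring each library at its own median raised every difference by 0.12 on the log2 scale and gave 4782 higher and 4224 lower. On the first principal component of the 9 libraries, with 50.9% of the variance, KD1 lay at 40.3 to 40.9, NT at -4.15 to -3.02 and KD2 at -37.4 to -37.0. On the second, with 38.2%, NT lay at 38.5 to 39.5 and all knockdown libraries between -24.0 and -15.3. Placed against the control, 4958 genes (40.5%) were higher and 3763 (30.7%) lower in KD1, and 4242 (34.6%) were higher and 4492 (36.7%) lower in KD2. The 2 placements share their control libraries and are given side by side only.

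**Figure D1:**
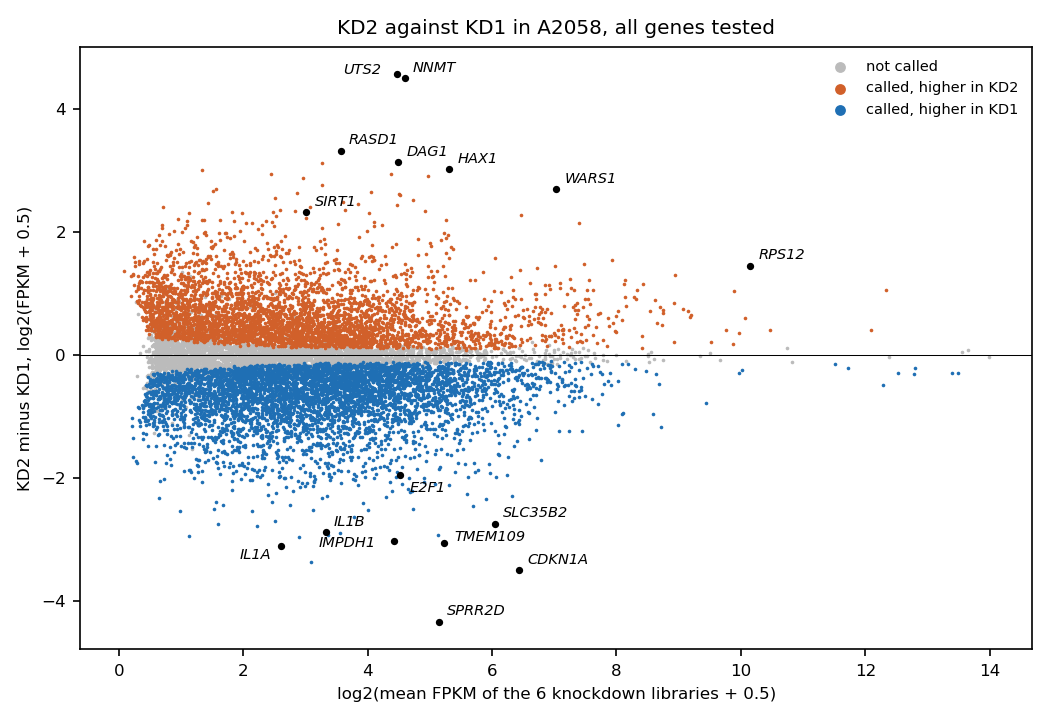
Each point is 1 of the 12252 tested genes in A2058, with its mean level over the 6 knockdown libraries on the horizontal axis and KD2 minus KD1 on the vertical axis, both on the log2(FPKM + 0.5) scale. Orange and blue points are the 3885 and 5115 genes called higher in KD2 and in KD1, and the named genes reach from 4.57 for UTS2 to -4.33 for SPRR2D.

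The gene furthest above in KD2 was UTS2. It encodes the vasoactive peptide urotensin 2 (chr1:7843083-7853512, minus strand). It stood at 1.24, 0.965 and 1.58 FPKM in KD1 and at 46.2, 52.3 and 28.2 FPKM in KD2, against 11.6 to 13.3 FPKM in the controls. KD1 was thus below and KD2 above every control library, with the widest spread in KD2. The difference was 4.57 ± 0.22 (SE) on the log2 scale, with an adjusted p of 3.4e-07.

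NNMT, nicotinamide N-methyltransferase, which methylates nicotinamide and so draws on the NAD precursor pool, took the second place (chr11:114257787-114313536, plus strand). It stood at 1.69, 1.35 and 1.55 FPKM in KD1 and at 44.2, 46.9 and 46.1 FPKM in KD2, a ratio of means of 29.8. The control mean was 16.9 ± 0.986 FPKM (SD, n = 3), again between the arms. The difference was 4.51 ± 0.07 (SE, adjusted p = 6.8e-09).

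For DAG1, the dystroglycan that ties the cell to laminin, KD2 was slightly above the control and KD1 was far below it. Its FPKM were 4.03, 4.42 and 3.80 in KD1, 41.9, 38.9 and 39.3 in KD2 and 37.6, 33.8 and 33.1 in the controls. HAX1, a mitochondrial protein needed for neutrophil survival, had 8.09, 7.62 and 8.94 FPKM in KD1 against 70.4, 70.4 and 70.3 in KD2 and 41.9 to 44.02 in the controls. The arms did not overlap for either gene, and the differences were 3.15 ± 0.06 and 3.03 ± 0.06 (SE, adjusted p = 1.1e-08 for both). EBPL, related to the sterol isomerase EBP, was below the control in both arms and further in KD1, at 1.35 ± 0.131 FPKM in KD1, 13.2 ± 0.783 in KD2 and 18.7 in NT (n = 3 each).

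The remaining 7 of the 12 protein-coding genes of largest difference were above the control in KD2. They are RASD1, a small GTPase induced by glucocorticoid (3.33), the homeobox gene HOXB13 (3.13), the elongation factor gene EEF1A2 (2.95), the cytokines IL11 (2.95) and IL24 (2.78), the heat shock gene HSPA6 (2.91) and the actin-like gene ACTBL2 (2.71), each as KD2 minus KD1 on the log2 scale. All but HSPA6 were also called below the control in KD1. IL11, an interleukin of the IL6 family, had 4.62, 4.10 and 3.96 FPKM in KD1 and 37.7, 29.0 and 42.7 FPKM in KD2. HSPA6 and ACTBL2 have close paralogs, and the labels do not say how fragments that match several genes were counted, so their values are uncertain.

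Among the 12 genes furthest above in KD1, the first was SPRR2D, a small proline-rich protein of the cornified envelope of keratinocytes (chr1:153039732-153041931, minus strand). It stood at 65.4, 65.7 and 69.6 FPKM in KD1 and at 2.48, 2.51 and 3.65 FPKM in KD2, with 14.3 to 20.1 FPKM in the controls. The difference was -4.33 ± 0.12 (SE, adjusted p = 3.1e-08), and near-identical SPRR2 copies make its value uncertain. CDKN1A, which encodes the cyclin-dependent kinase inhibitor p21 (chr6:36676460-36687337, plus strand), had 164, 159 and 151 FPKM in KD1 and 13.4, 11.7 and 15.7 FPKM in KD2. The controls, at 42.6 to 45.3 FPKM, lay between the arms. The ratio of means was 11.6, and the difference was -3.50 ± 0.09 (SE, adjusted p = 3e-08).

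IMPDH1, an enzyme of guanine nucleotide synthesis, and TMEM109, a membrane protein of the endoplasmic reticulum, were above the control in KD1 and far below it in KD2. IMPDH1 had 36.2, 37.4 and 39.2 FPKM in KD1 and 4.47, 3.94 and 4.18 FPKM in KD2, against 20.4 to 21.6 in NT. TMEM109 had 61.5, 66.3 and 70.7 FPKM in KD1 and 6.93, 8.59 and 7.03 FPKM in KD2, against 45.1 to 50.2 in NT. Their differences were -3.02 and -3.06, with adjusted p of 1.1e-08 and 3.5e-08. JAGN1 (-2.93), which acts in the secretory pathway of neutrophils, the acid phosphatase ACP2 (-2.89), the acetyltransferase NAT14 (-2.93) and the sulfate donor transporter SLC35B2 (-2.74) were likewise called below the control in KD2. The interleukin 1 genes IL1A and IL1B, the retinal carrier RLBP1 (-2.78) and the neurotensin receptor NTSR1 (-2.75) had low control levels, from 0.120 FPKM for NTSR1 to 1.58 FPKM for IL1A, and were all called above them in KD1.

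**Figure D2:**
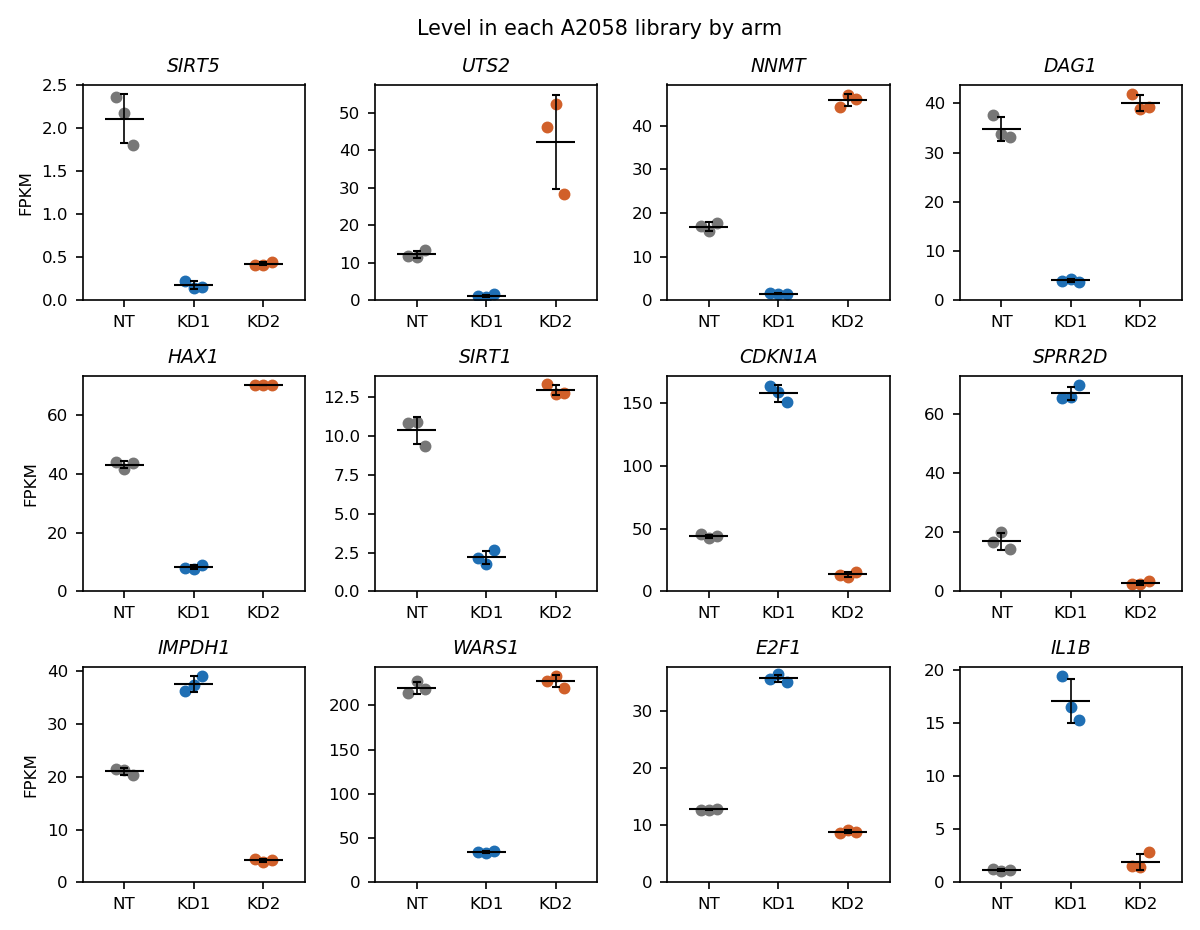
FPKM in each of the 9 A2058 libraries for 12 named genes, with a point per library, a line at the mean and a bar of 1 SD (n = 3). KD1 and KD2 do not overlap in any panel, and the control lies between them for UTS2, NNMT, DAG1, HAX1, SIRT1, CDKN1A, SPRR2D, IMPDH1 and E2F1.

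Sirtuins and the machinery that uses the hairpins were read next. SIRT1, the nuclear deacetylase of the family, was called higher in KD2, the only one of the 6 sirtuins that passed the expression minimum to be so. Its FPKM were 2.14, 1.79 and 2.63 in KD1, 13.3, 12.7 and 12.8 in KD2 and 10.8, 10.9 and 9.36 in NT. The KD1 libraries lay far below the other 6, at a difference of 2.33 ± 0.10 (SE, adjusted p = 2.5e-07). SIRT2, a cytosolic deacetylase, was lower in KD2 at 2.49 ± 0.285 FPKM than in KD1 at 4.97 ± 0.463 (n = 3 each), and SIRT7 was lower too, at -0.26 on the log2 scale. SIRT3, SIRT4 and SIRT6 did not pass the test, at -0.24, 0.01 and -0.03. Of 14 genes of RNA interference, 9 were lower and 3 higher in KD2 (41.7% and 31.7% over all tested genes), and the median was -0.35 against -0.07. DICER1 was at 17.8 ± 1.22 FPKM in KD1 and 12.4 ± 0.799 in KD2 (n = 3 each), and AGO2, the slicing Argonaute, was at 15.2 and 11.7 FPKM.

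The 3′ UTRs of the tested genes, called or not, were searched for short words, since seeds of guides differ between hairpins. The members were all 7-mers of A, C, G and T read on the transcript strand in the longest annotated 3′ UTR of each gene, 16314 words held by at least 50 of 10678 tested genes. For each, the mean of KD2 minus KD1 over genes that hold the word was set against the mean over genes without it. The words were ranked by this difference divided by its pooled standard error, which favours words held by many genes. This ranking is a description and carries no test. The longest annotated 3′ UTR can come from a minor transcript, in which a stretch that codes for protein in the main transcript is untranslated.

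First in this ranking for lower levels in KD2 was CAGCTCC, with AGCTCCA and AGCTCCT, which overlap it, in the next places. First for lower levels in KD1 was AACCAGA, followed by AAACCAG and ACCAGAA, which overlap it too. Of the 24 annotated transcripts of SIRT5, the target of both hairpins, 23 held AACCAGA and 0 held CAGCTCC. The hairpin sequences were not at hand, so whether either word matches a guide was not tested. The median of KD2 minus KD1 was -0.22 over 2365 genes with CAGCTCC and -0.07 over 8313 without it. It was 0.03 over 1887 genes with AACCAGA and -0.13 over 8791 without it. In the placements, genes with CAGCTCC had medians of 0.10 in KD1 and -0.15 in KD2, against 0.08 and 0.00 for genes without the word. Genes with AACCAGA had medians of -0.02 in KD1 and -0.01 in KD2, against 0.11 and -0.03.

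CAGCTCC was present in 8 of the 12 named genes higher in KD1 and in 22.1% of all tested genes with a 3′ UTR. Among genes called at least 2-fold, it was present in 35.3% of those higher in KD1 and 14.9% of those higher in KD2, whereas AACCAGA was present in 12.8% and 25.1%. Over all tested genes with a 3′ UTR the share with AACCAGA was 17.7%. Of the 12 named genes higher in KD2, 2 held AACCAGA, HAX1 and EBPL, which is near that share. The words were chosen on these differences, so the shares are no test of them. The stretches below, all on the transcript strand from the 5′ end and credited to GENCODE release 44 on GRCh38, show 2 genes low in KD1, with AACCAGA, and 3 genes low in KD2, with CAGCTCC, with the 7-mer in capitals.
SIRT1 3′ UTR, chr10:67916680-67916706, plus strand: agagcaaggaAACCAGAaaggtgtaat
EBPL 3′ UTR, chr13:49660914-49660940, minus strand: taacttcatgAACCAGAatgaatcaaa
CDKN1A 3′ UTR, first site, chr6:36686637-36686663, plus strand: agtaccctctCAGCTCCaggtggctct
CDKN1A 3′ UTR, second site, chr6:36687131-36687157, plus strand: aaacaccttcCAGCTCCtgtaacatac
CDKN1A 3′ UTR, last site, chr6:36687261-36687287, plus strand: gtgtctttcaCAGCTCCtcccacaatg
IMPDH1 3′ UTR, chr7:128392881-128392907, minus strand: acgggttctcCAGCTCCtttccaggca
TMEM109 3′ UTR, first site, chr11:60922578-60922604, plus strand: gccaaatctcCAGCTCCcttcttgttt

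The printed sites lie in the 3′ UTR of the gene's MANE Select transcript. In contrast, 1 of the 2 HAX1 sites was placed, and it is in coding sequence of that transcript, as are the sites of ACP2 and SLC35B2. The NAT14 site lies outside the exons of that transcript. DAG1 went against the pattern, since it holds CAGCTCC and was far lower in KD1. Genes with neither word in a 3′ UTR that could be searched differed as well: of 6995 such genes, 2113 were higher and 3101 lower in KD2, and UTS2, NNMT, IL1A, IL1B and E2F1 are among them. The part of seed pairing in any single difference was not tested.

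**Figure D3:**
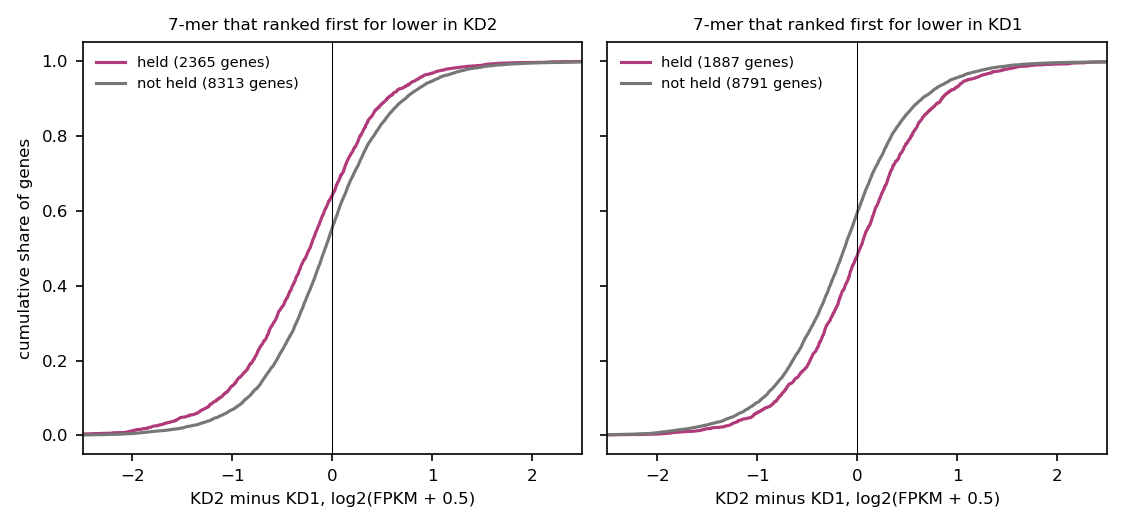
Cumulative share of genes (vertical axis) by KD2 minus KD1 on the log2(FPKM + 0.5) scale (horizontal axis) in A2058, for genes whose longest 3′ UTR holds (magenta) or does not hold (grey) each leading 7-mer. Genes with CAGCTCC, on the left, lie towards lower KD2, with a median of -0.22 against -0.07, and genes with AACCAGA, on the right, towards lower KD1, with 0.03 against -0.13.

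The 2 words were then read, unchanged, in the knockdown libraries of A375 and SKMEL2, which took no part in choosing them. Genes with CAGCTCC had a median KD2 minus KD1 of -0.22 in A375 against -0.07 without it, and of -0.14 in SKMEL2 against -0.02. Genes with AACCAGA had -0.07 in A375 against -0.11 without it, and 0.04 in SKMEL2 against -0.06.

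Cell cycle genes were read by phase. Genes of the G1/S transition and of DNA replication, most of them targets of the E2F factors, were higher in KD1: 29 of 30 were called lower in KD2 and 0 higher (41.7% and 31.7% over all tested genes), and the median was -0.95 against -0.07. E2F1, the activator itself, had 35.7, 36.5 and 35.2 FPKM in KD1 and 8.67, 9.16 and 8.90 FPKM in KD2. The controls, at 12.75 to 12.96 FPKM, were between the arms and close to KD2, and the difference was -1.95 ± 0.04 (SE, adjusted p = 1.8e-08). CCNE1, the cyclin that drives entry into S phase, had 35.4, 29.7 and 32.4 FPKM in KD1 and 7.14, 7.25 and 7.84 FPKM in KD2. MCM2, a subunit of the replicative helicase, had 16.6, 18.9 and 18.8 FPKM in KD1 and 4.60, 4.56 and 4.45 FPKM in KD2. For both, KD1 was above and KD2 below every control library. TK1 was the member that did not pass, at -0.11. Against the control, 25 of the 30 were called higher in KD1 and 26 lower in KD2 (40.5% and 36.7% over all tested genes). The kinase inhibitor CDKN1A, described above, was highest in the same arm as these genes.

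Most genes of G2/M and mitosis were below the control in both arms. Of 29 tested, 28 were called lower than control in KD1 and 26 in KD2 (30.7% and 36.7% over all tested genes). The medians were -0.99 and -0.56, while CDC25C (0.41) and CENPF (0.28) were called above the control in KD2. Between the arms, 19 were called higher and 6 lower in KD2 (31.7% and 41.7% over all tested genes). TOP2A, the DNA topoisomerase of dividing cells, had 20.8, 19.3 and 20.6 FPKM in KD1, 38.6, 43.4 and 40.3 in KD2 and 73.4 to 81.4 in NT. Both arms lay below all controls, and the difference between them was 0.99 ± 0.05 (SE, adjusted p = 7.4e-07). TPX2, a spindle assembly factor, was at 46.1 ± 1.75 FPKM in KD2, near its control mean of 48.4, and at 19.8 ± 0.998 in KD1 (n = 3 each). The 6 that were lower in KD2 include the mitotic kinase CDK1, at 41.6 FPKM in KD1 and 23.3 in KD2, the checkpoint gene MAD2L1 (-0.94) and AURKB (-0.58).

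The replication-dependent histones, normally made in S phase and without a poly(A) tail, had the largest median of all lists, 1.62. Of 56 listed genes, 46 were in the table and 23 passed the expression minimum. Of these, 22 were called higher in KD2 and 0 lower (31.7% and 41.7% over all tested genes), and H4C3 did not pass, at 0.67. H3C10 had 1.61, 1.33 and 1.57 FPKM in KD1 and 12.7, 11.04 and 12.2 FPKM in KD2, with at most 4.99 in the controls. H4C8 had 1.07, 1.02 and 1.38 FPKM in KD1 and 8.59, 9.58 and 9.47 FPKM in KD2. KD2 was above every control library for both, and the medians against control were -0.57 in KD1 and 1.08 in KD2. Histone genes are near-identical copies, and a low gene can pass the minimum through the arm where it is high. The count, the median and its rank among the lists are therefore no support for a direction. Whether poly(A) RNA was selected is not stated in the labels used here.

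**Figure D4:**
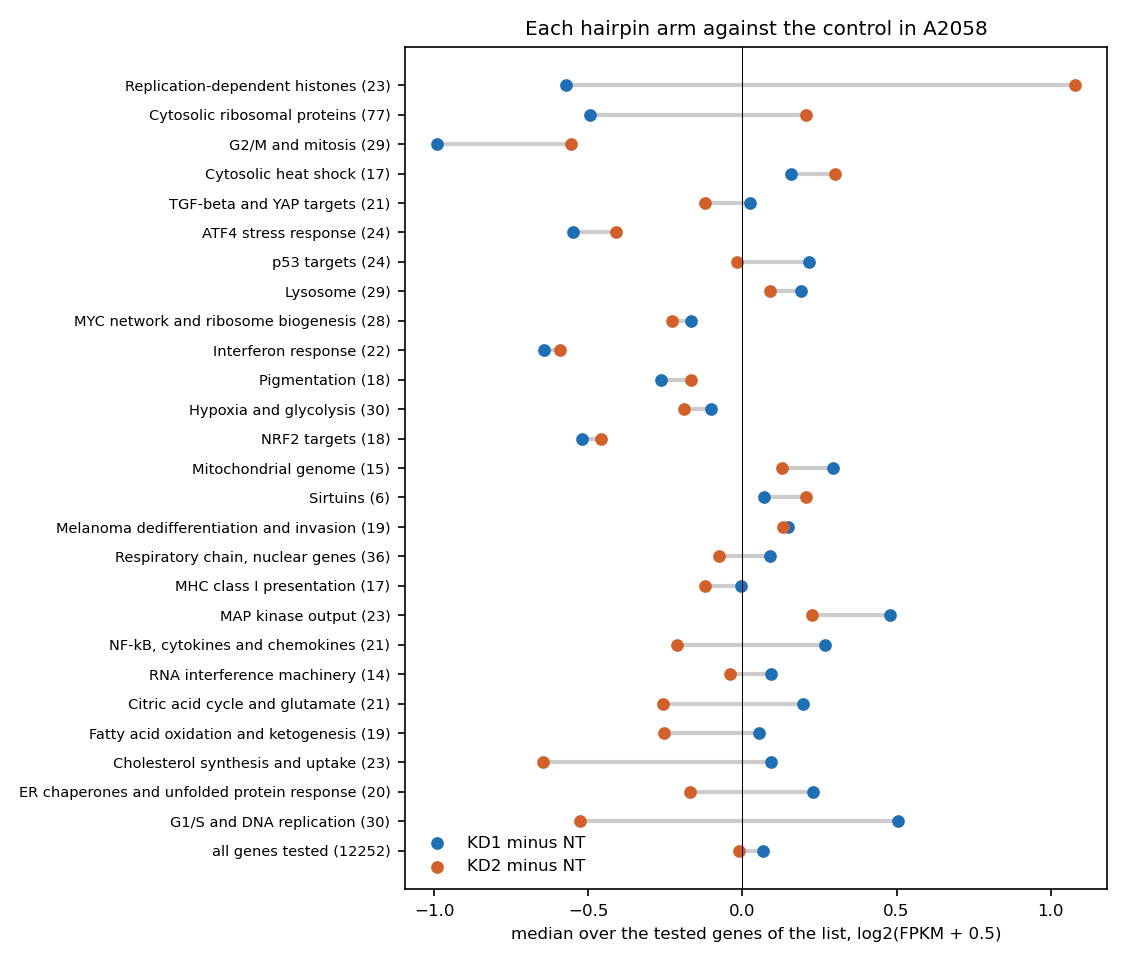
Median of KD1 minus NT (blue) and of KD2 minus NT (orange) in A2058 over the tested genes of each list, on the log2(FPKM + 0.5) scale, with the number of tested genes in brackets and lists ordered by the median of KD2 minus KD1. Histones, cytosolic ribosomal proteins and G1/S genes have their medians on opposite sides of the control in the 2 arms, and G2/M genes lie below it in both.

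Cytosolic ribosomal proteins, which are translated from short and abundant transcripts, were higher in KD2 for 70 of 77 genes and lower for 4 (31.7% and 41.7% over all tested genes), and the median was 0.70 against -0.07. RPS12 had 631, 558 and 624 FPKM in KD1 and 1672, 1639 and 1670.5 FPKM in KD2, a ratio of means of 2.75. The control mean was 987 FPKM, between the arms. RPL18 had 56.2, 56.1 and 58.0 FPKM in KD1 and 156, 147 and 154 FPKM in KD2, and its 118 to 134 FPKM in the controls were below KD2. The 4 that were lower in KD2 were RPL14 (-1.11), RPS28 (-0.97), RPL15 (-0.54) and RPL24 (-0.17). Of the 77, 71 were called lower and 2 higher than NT in KD1 (30.7% and 40.5% over all tested genes). In KD2, 48 were called higher and 10 lower than NT (34.6% and 36.7%). Genes of the MYC network and ribosome biogenesis had no common direction, with 11 of 28 higher and 10 lower (31.7% and 41.7%). PA2G4, a growth regulator that binds ribosomes, was below the control mean of 53.8 FPKM in both arms, at 27.6 in KD1 and 13.2 in KD2.

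Metabolic enzymes of mitochondria, a compartment with many SIRT5 substrates, were read by pathway. In the citric acid cycle and glutamate list, 18 of 21 were lower and 2 higher (41.7% and 31.7% over all tested genes), and the median was -0.42 against -0.07. DLD, the dihydrolipoyl dehydrogenase, had 55.1, 49.4 and 52.2 FPKM in KD1, 21.5, 20.1 and 19.4 FPKM in KD2 and a mean of 39.8 in NT. KD1 was above the control and KD2 below it, at a difference of -1.34 ± 0.06 (SE, adjusted p = 1.8e-07). Pyruvate carboxylase PC (-1.27) and IDH2 (-1.18) followed, while SUCLG2 and IDH3A were higher by 0.30 and 0.31. DLD and PC hold both CAGCTCC and AACCAGA in the longest 3′ UTR, and IDH2 holds neither. In the gene's MANE Select transcript the DLD sites lie in the 3′ UTR, but the PC sites lie in coding sequence.

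For fatty acid oxidation and ketogenesis, 12 of 19 were lower and 3 higher in KD2 (41.7% and 31.7% over all tested genes), and the median was -0.46 against -0.07. ACADM, the medium-chain acyl-CoA dehydrogenase, had 26.7, 25.1 and 24.6 FPKM in KD1 and 6.83, 8.72 and 7.09 FPKM in KD2, with 26.3 to 31.6 FPKM in NT. HADHA, of the trifunctional protein, had 59.2, 56.8 and 62.1 FPKM in KD1 and 22.3, 24.95 and 21.97 FPKM in KD2. For both, KD1 was near the control and KD2 below it. CPT1A, which admits fatty acids to the mitochondrion, went the other way, at 1.63 FPKM in KD1 and 4.58 in KD2 (1.26). Nuclear genes of the respiratory chain moved little, with 20 of 36 lower and 5 higher (41.7% and 31.7% over all tested genes). Their median was -0.16 against -0.07, and NDUFA4 was the furthest, at 1.23. Of the 15 genes of the mitochondrial genome 8 were lower and 2 higher (41.7% and 31.7% over all tested genes). The rRNA gene MT-RNR2 stood out at 1.07.

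Cholesterol synthesis and uptake genes, which SREBF2 controls, were lower in KD2 for 16 of 23 and higher for 2 (41.7% and 31.7% over all tested genes), and the median was -0.52 against -0.07. DHCR7, the last enzyme of the pathway, had 6.91, 7.47 and 6.92 FPKM in KD2, below 21.6 to 23.3 FPKM in NT and a mean of 26.7 ± 1.44 FPKM in KD1 (SD, n = 3). HSD17B7 (-1.396), the sterol carrier STARD4 (-1.32) and FDPS (-1.20) followed, and SQLE and SC5D were higher by 0.24 and 0.32. Against the control, 19 of the 23 were called lower in KD2 (36.7% over all tested genes). In KD1 7 were higher and 9 lower (40.5% and 30.7%). Hypoxia and glycolysis genes had no common direction, with 10 of 30 higher and 15 lower (31.7% and 41.7% over all tested genes). Glucose transporter SLC2A3 had 9.62, 9.55 and 9.29 FPKM in KD1 and 51.5, 52.2 and 47.3 FPKM in KD2, on either side of 17.2 to 18.5 in NT, while the glycolytic enzyme PGAM1 was at 72.1 FPKM in KD1 and 27.5 in KD2.

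Chaperones of the endoplasmic reticulum and other genes of the unfolded protein response were lower in KD2 for 14 of 20 and higher for 4 (41.7% and 31.7% over all tested genes), and the median was -0.54 against -0.07. HYOU1, a large chaperone of the reticulum, had 27.1, 27.0 and 27.6 FPKM in KD1 and 6.70, 7.11 and 6.47 FPKM in KD2. MANF, a secreted reticulum protein, had 101, 94.2 and 89.2 FPKM in KD1 and 25.9, 29.8 and 26.8 FPKM in KD2. HERPUD1 (1.402), DNAJC3 (0.75), SEL1L (0.66) and XBP1 (0.24) were the members higher in KD2.

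Cytosolic heat shock genes were higher in KD2 for 9 of 17 and lower for 4 (31.7% and 41.7% over all tested genes). With each library centred at its median they were 10 and 3, beside 4782 higher and 4224 lower of all tested genes. HSPA6, an inducible HSP70, had 7.09, 7.32 and 6.06 FPKM in KD1, 54.6, 46.1 and 63.8 FPKM in KD2 and 1.38 to 2.40 in NT. Both arms were above the control. CRYAB, a small heat shock protein, had 3.05, 3.76 and 2.66 FPKM in KD1, 19.3, 17.7 and 23.2 in KD2 and 3.41 to 3.95 in NT, so that only KD2 was called above the control. HSPA1A, a near-identical copy of HSPA1B and so uncertain, had a difference of 1.16, and the co-chaperone BAG3 one of 1.67. HSF1, the activator of the response, was lower in KD2, at 24.7 FPKM in KD1 and 15.7 in KD2. In the ATF4 list 13 of 24 were higher and 9 lower (31.7% and 41.7% over all tested genes). WARS1, the tryptophanyl-tRNA synthetase, was the furthest, at 34.7, 33.2 and 35.0 FPKM in KD1 against 228, 233 and 220 in KD2 and 214 to 227 in NT.

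In the list of NF-kB targets, cytokines and chemokines, 12 of 21 were lower and 7 higher in KD2 (41.7% and 31.7% over all tested genes), and the median was -0.33 against -0.07. IL1B had 19.4, 16.5 and 15.3 FPKM in KD1, 1.56, 1.47 and 2.83 FPKM in KD2 and 1.11 to 1.25 in NT. IL1A had 11.3, 10.2 and 9.55 FPKM in KD1, 0.647, 0.441 and 1.34 FPKM in KD2 and 1.55 to 1.61 in NT. Both were highest in KD1, while in KD2 IL1B was called above the control and IL1A below it. The chemokines CCL20 (-1.99), CXCL1 (-1.62), CXCL3 (-0.99), CXCL2 (-0.92) and CXCL8 (-0.74) were lower in KD2 too. IL6 (1.61), BIRC3 (1.07) and NFKB2 (0.86) were higher in KD2. In the interferon list 8 of 22 were higher and 7 lower (31.7% and 41.7% over all tested genes), led by OASL (1.86) and IFI35 (-1.28). Its medians against control were -0.64 in KD1 and -0.59 in KD2.

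Signalling genes followed no single direction. The inhibitors of differentiation ID1, ID2 and ID3, which dimerize with basic helix-loop-helix factors, were higher in KD2. ID3 had 3.80, 3.92 and 4.46 FPKM in KD1 against 30.2, 25.6 and 28.8 in KD2 and 29.7 to 32.3 in NT, and ID2 and ID1 differed by 2.11 and 1.60. TGFBR2, the type II receptor for TGF-beta, had 27.3, 25.8 and 27.1 FPKM in KD1 and 4.33, 4.03 and 4.48 FPKM in KD2, with the controls between them at 7.95 to 8.15. The ligand TGFB1 (-1.42) and the receptor TGFBR1 (-0.85) were lower in KD2 as well. In all, 11 of 21 genes of the TGF-beta and YAP list were higher and 6 lower (31.7% and 41.7% over all tested genes). Of 23 genes of MAP kinase output, 14 were lower and 5 higher (41.7% and 31.7% over all tested genes). FOSL1, an AP-1 subunit, had 71.6, 71.6 and 75.1 FPKM in KD1 and 20.98, 18.8 and 23.8 FPKM in KD2, while JUNB was at 45.8 FPKM in KD1 and 112 in KD2.

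Among p53 targets, 7 of 24 were higher and 8 lower in KD2 (31.7% and 41.7% over all tested genes), so CDKN1A did not stand for the list. TP53I3 (-1.21), SESN1 (-1.003) and DDB2 (-0.70) were lower, and TP53INP1 (0.87) and PLK3 (0.49) were higher. Of 18 NRF2 targets 5 were higher and 8 lower (31.7% and 41.7% over all tested genes). Of 29 lysosomal genes 13 were higher and 13 lower, beside the same shares. GAA, the acid alpha-glucosidase, was at 16.1 FPKM in KD1 and 4.28 in KD2, and the protease CTSD was at 53.05 and 98.7 FPKM.

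Lineage genes were divided too. Of the 18 pigmentation genes tested 7 were higher and 7 lower in KD2 (31.7% and 41.7% over all tested genes). TYRP1 was at 3.58 ± 0.476 FPKM in KD1 and 9.69 ± 0.246 in KD2, DCT was at 94.6 ± 11.8 and 54.7 ± 11.6, and both were below their control means of 25.4 and 336 FPKM (n = 3 each). MITF, the master regulator of melanocytes, was at 13.5 FPKM in KD1 and 16.4 in KD2 against 35.2 in NT. In the list of dedifferentiation and invasion 7 of 19 were higher and 9 lower (31.7% and 41.7% over all tested genes). ITGB3, the beta 3 integrin, had 126, 119 and 115 FPKM in KD1, 32.0, 31.1 and 29.3 FPKM in KD2 and 14.97 to 16.7 in NT. The collagenase MMP1 had 313, 261 and 274 FPKM in KD1 and 707, 643 and 736 FPKM in KD2. Of 17 genes of MHC class I presentation 6 were higher and 10 lower (31.7% and 41.7% over all tested genes). The heavy chains HLA-B (1.25) and HLA-C (1.07) and B2M (0.42) were higher, and the peptide transporter TAP1 (-1.08), TAPBP (-0.67) and CALR (-0.96) were lower. Reads of HLA genes can be shared between copies, which makes these values uncertain.

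The same hairpins were compared in A375 and SKMEL2, 2 further melanoma lines, within each line's own libraries. In A375, 1731 of 11980 tested genes (14.4%) were higher and 2179 (18.2%) lower in KD2, and in SKMEL2 4450 (33.1%) of 13436 were higher and 4746 (35.3%) lower. Of the genes called higher in A2058 and tested in both, 1022 were called higher in A375 as well, 31.2% of the A2058 list and 69.2% of the A375 list. For lower genes it was 1478, 32.1% and 77.9%. In SKMEL2, 2028 genes were shared among the higher, 56.7% of the A2058 and 57.3% of the SKMEL2 list, and 2702 among the lower, 58.4% and 65.2%. Of the genes called at least 2-fold in A2058, 58.8% of the higher and 64.2% of the lower were called alike in A375, and 76.6% and 76.0% in SKMEL2. Of the higher genes of A2058, 177 were called the opposite way in A375 and 541 in SKMEL2, and of the lower 204 and 691.

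DAG1, HAX1 and IMPDH1 were among the genes that differed in all 3 lines. KD2 minus KD1 of DAG1 was 3.15 in A2058, 3.39 in A375 and 2.88 in SKMEL2, and A2058 differed from them by -0.24 and 0.26 (SE 0.14 for both, adjusted p = 0.19 and 0.16). IMPDH1 was at -3.02, -3.27 and -2.91, with differences between lines of 0.25 and -0.11 (SE 0.16 for both, adjusted p = 0.23 and 0.62). These p-values do not show that the lines are alike. HAX1 was at 3.03, 3.48 and 2.17, and A2058 differed from SKMEL2 by 0.86 (adjusted p = 0.004).

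The size or sign of the hairpin difference varied with the line for many other genes. In a fit over the 18 knockdown libraries, KD2 minus KD1 in A2058 differed from that in A375 for 4592 of 12252 genes (37.5%) and from that in SKMEL2 for 4465 (36.4%). All 30 G1/S genes were below A375 and below SKMEL2 by this test. Their medians were -0.95 in A2058, 0.99 in A375 and 0.22 in SKMEL2, so that KD1 had the higher level in A2058 and KD2 in A375. E2F1 was at -1.95 in A2058 and 1.05 in A375, a difference of -2.996 ± 0.18 (SE, adjusted p = 1.3e-08). In A375 it stood at 8.26 ± 0.267 FPKM in KD1 and 18.1 ± 4.96 in KD2 (n = 3 each). CCNE1 did not reverse, at -2.06, -0.68 and -0.85. The G2/M medians were above 0 in all 3 lines, at 0.34, 1.36 and 1.18, and 21 and 20 of the 29 genes were called below A375 and SKMEL2 by the same test.

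Heat shock genes also went different ways. CRYAB was higher in KD2 in A2058, by 2.49, and lower in KD2 in A375, by -2.89, a difference of 5.39 ± 0.21 (SE, adjusted p = 1.9e-10). HSPA6 was at 2.91 and -2.38, and HSPA1A at 1.16 and -2.001. Over the heat shock list the medians were 0.31 in A2058, -0.63 in A375 and -0.54 in SKMEL2. By the test between lines, 10 of 17 genes were above A375 and 10 above SKMEL2. Of all tested genes 37.5% and 36.4% differed, in either direction. MMP1 was higher in KD2 in A2058 and lower in SKMEL2, at 1.30 and -2.53. Histone medians were 1.62, 0.33 and 0.65, over the 23, 16 and 18 genes that passed the minimum in each line. These gene sets are not the same, so the histone medians are not like for like. Ribosomal protein medians were 0.70, 0.82 and 0.56. CDKN1A was higher in KD1 in all 3 lines, at -3.50, -2.65 and -1.49, and IL1B likewise, at -2.88, -2.89 and -1.98.

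**Figure D5:**
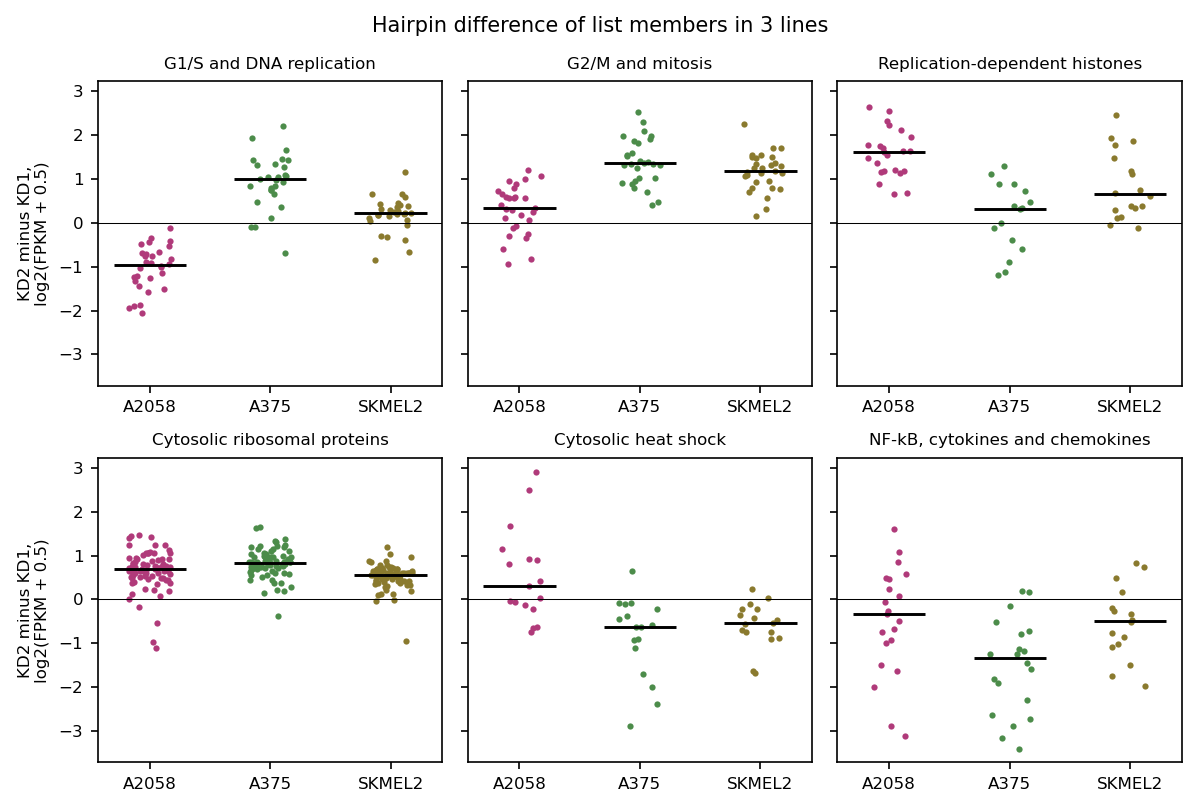
KD2 minus KD1 on the log2(FPKM + 0.5) scale (vertical axis) for each tested member of 6 gene lists in A2058, A375 and SKMEL2, each from its own line's fit, with a point per gene and a line at the median. The G1/S median is -0.95 in A2058 and 0.99 in A375, the heat shock median 0.31 and -0.63, and the ribosomal protein median is 0.70, 0.82 and 0.56 in the 3 lines.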

How the data were processed

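Alignment by the authors used STAR 2.7.3a and counting used featureCounts, per the labels and series text, with DESeq2 1.28.1 for their own comparisons. The submitters' processing notes also name Subread 2.0.0, Trimmomatic 0.39, FastQC 0.11.9 and MultiQC 1.9, without their roles. The gene models were GENCODE release 34 on GRCh38, per the labels and series text. The values used as given are FPKM, deposited for 26004 genes in 27 libraries. No source used here states whether counting respected strand or kept multi-mapping fragments. The authors' deposited base means, a signal of reads over size factors averaged over all libraries, served with the FPKM to recover whole reads per gene, and 100% of values above 0 came out whole within 0.05 reads.

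Genes with at least 1 FPKM in 3 of the 6 libraries were tested with limma 3.58.1 (R 4.3.3) on log2(FPKM + 0.5) with a variance trend. P-values were adjusted by Benjamini-Hochberg over all tested genes, at 0.05. This scale understates changes of genes with low FPKM. SE is the standard error from limma's moderated variance. The placement used 9 A2058 libraries, the tests between lines 18 knockdown libraries. No pair of libraries agreed within sampling noise (mean chi-square per gene 5.01 to 8.87). Scripts were tested on simulated data. Named genes are SIRT5, the 12 protein-coding genes furthest in each direction without overlap and with a mean of at least 2 FPKM in the higher arm, up to 4 called members per list, and 5 genes per test between lines. Other list members are named to complete a count or for their role. The gene lists and members were chosen with earlier results of these data known. Gene positions and 3′ UTRs come from GENCODE release 44, which held 99.6% of the gene identifiers.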

Additional observations from a re-analysis of the deposited data

Results flagged for a closer look

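The hairpin difference in A2058 was tested against that in each other line, and the following passed. Over all genes these were 4592 against A375 and 4465 against SKMEL2. The 5 named genes of smallest adjusted p against A375 were CRYAB, with A2058 minus A375 at 5.39, HSPA6 at 5.29, HOXB13 at 2.69, UTS2 at 4.52 and E2F1 at -2.996. Against SKMEL2 they were MMP1, with A2058 minus SKMEL2 at 3.83, HOXB13 at 2.93, SPRR2D at -3.64, UTS2 at 4.57 and MANF at -2.37. Some of these lines hardly express the gene: UTS2 was at 0.128 and 0.152 FPKM in the A375 arms and listed at 0 in SKMEL2, HOXB13 was at most 0.0919 FPKM and SPRR2D at most 0.423 FPKM in the SKMEL2 arms.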

How the results depend on the processing

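Under other settings and with each library left out, the counts of genes higher and lower in KD2 stayed within 1.5 times their values, apart from a minimum mean of 5 FPKM, which tests fewer genes and gave 2098 higher and 3409 lower, with 310 and 612 at least 2-fold. With limma-voom on recovered reads, 1170 genes were at least 2-fold higher. Leaving out the genes that hold either leading 7-mer, chosen after seeing the data, left 8569 of the 12252 tested genes. Of these, 570 were at least 2-fold higher and 596 lower, beside 749 and 976 of all tested genes. Among the 596, 87 had no annotated 3′ UTR. Without 1 library each, 3637 to 3710 genes were higher and 4773 to 4980 lower. The replicate block gave 3775 higher and 4976 lower, and 3195 and 3121 differences from A375 and SKMEL2 in place of 4592 and 4465. Same-numbered libraries of the arms, each taken as deviations from its arm mean, correlated at -0.08, -0.05 and -0.02. These values show no pairing by number, and whether the libraries share a batch was not tested. No named gene changed sign. A call was lost in 8 cases, all of SIRT7, DICER1, MT-ND1, MT-ND3 or MT-ATP8. Over lists and settings, 137 medians moved by more than the libraries' spread and 376 did not, and 55 counts moved by over 1.5 times and 979 did not, with 34 of these moves under median centring and 28 under quantile normalization. Medians of the interferon, MYC, pigmentation, hypoxia and melanocyte marker lists changed sign under some settings; the cause was not tested. SIRT5 rests on few reads, which limits its ratio.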
